A study of Mus musculus with 32 samples.

Results

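Messenger RNA was compared between the start and the second day of retinal organoid differentiation in a mouse line that carries an inducible METTL3 fusion and was kept with dexamethasone (Dex). METTL3 is the catalytic subunit of the complex that writes N6-methyladenosine (m6A) on RNA, and Dex is a synthetic glucocorticoid. The comparison used 4 of the 32 libraries of the series, namely 2 labelled fusion with Dex at day 0 and 2 labelled fusion with Dex at day 2, and all 16276 genes that passed the filter on low values.

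Both groups have the same genotype per the labels, a Mettl3 knockout of the Rx:GFP embryonic stem cell line in which wild-type METTL3 joined to a domain named GRBD was overexpressed. In Rx:GFP cells, GFP reports on the eye field gene Rax (Rx). The series' design text places the fusion protein in the cytosol without Dex and in the nucleus with it. The day 0 libraries come from embryonic stem cells labelled Dex treated, and the day 2 libraries from organoids labelled AGN and Dex treated. The growth protocol gives AGN at 0.1 µM in a GMEM medium with 5% KSR, and the treatment protocol gives Dex at 10 µM for 2, 4 and 6 days. How long the day 0 cells had been in Dex, the vector that drives the fusion and the number of clones are not given in the labels. Stem cells and organoids, the medium with AGN, and the day all differ between the groups and cannot be told apart, nor can any difference in time in Dex. The series also holds the same fusion line without Dex (called no Dex below), the parental Rx:GFP line (WT) and the knockout (KO), each with 2 libraries at day 0 labelled untreated and 2 at day 2 labelled AGN treated, and the day 0 to day 2 change was set against theirs.

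Mouse embryonic stem cells held with the cytokine LIF are in a naive state, kept by transcription factors such as Klf4, Esrrb and Nanog that act with Pou5f1 (Oct4) and Sox2. On removal of the conditions that keep that state they pass through a formative state marked by Otx2, Pou3f1, Fgf5 and Dnmt3b, and only then take on germ layer fates. In retinal organoid culture the aggregates then form neural epithelium, in which the eye field genes Rax, Six3, Lhx2 and Pax6 mark the future retina.

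Estimated depth was 36.4 and 36.6 M fragments (M, mega) in the day 0 libraries and 41.6 and 37.1 M in the day 2 libraries, within the range of 28.6 to 52.9 M over all 32. For a 2 kb transcript, 3 fragments come to between 0.042 and 0.048 FPKM (a fragment count corrected for transcript length and library depth), a limit that covers counting error only. The duplicates correlated across genes at Pearson r = 0.9916 at day 0 and 0.9925 at day 2, and their squared differences were 5.44 and 5.69 times the counting noise (median over genes with many fragments). The labels do not say whether duplicates came from separate cultures, so p-values measure the spread between these libraries, which may be technical. In the WT line the day 0 duplicates differed more, by 17.7 times the counting noise, which bears on the comparisons with WT. Because the spread was estimated over all 32 libraries, that pair also enters every other test. In bulk RNA, fewer cells of a type and less RNA per cell cannot be told apart.

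Mettl3 (GRCm38 chromosome 14, 52294841 to 52305128, minus strand) stood at 75.1 and 75.0 FPKM at day 0 and at 53.8 and 50.9 FPKM at day 2. The groups did not overlap, and the fall was 0.51 on the log2 scale (SE 0.06, adjusted p = 5.35e-07). All log2 changes here are on log2(FPKM + 1), where low genes change by less than their ratio of FPKM, and adjusted p-values are from limma with Benjamini-Hochberg adjustment over the 16276 genes, called under 0.05. Gene-level values do not separate transcripts of the fusion from those of the knocked-out gene. Nr3c1, the glucocorticoid receptor, stood at 1.79 and 1.65 FPKM at day 0 and 1.48 and 1.72 FPKM at day 2 (log2 change -0.07, adjusted p = 0.579).

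Of the 16276 genes, 9869 (60.6%) were called. By direction, 4755 (29.2%) were higher at day 2 and 5114 (31.4%) were lower. Most changes were small, since 6020 of the called genes changed by less than 1.5-fold and the median size over called genes was 0.46. A change of at least 2-fold was called upward in 732 genes (4.5%) and downward in 1093 genes (6.72%). With 2 libraries a group, 78.2% of all genes had groups that did not overlap, so non-overlap is given below as a description. Rescaling the libraries by median-of-ratios factors moved the median of all genes from 0.00 to 0.02. Gene lists are described by how many members were called each way and by their median, beside 29.2% higher, 31.4% lower and a median of 0.00 over all tested genes.

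**Figure D1:**
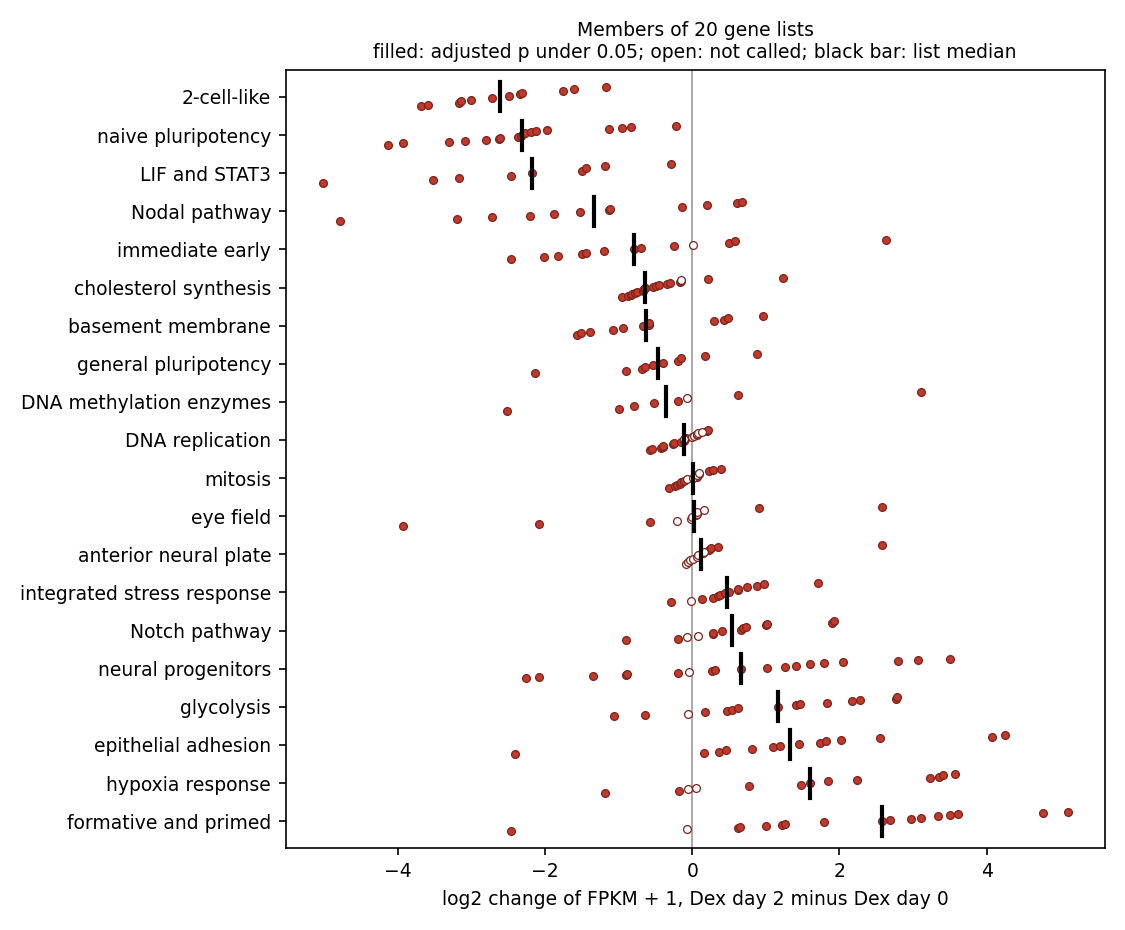
Log2 change of FPKM + 1 from Dex day 0 to Dex day 2 (horizontal axis) for the tested members of 20 gene lists (rows); each point is a gene, filled where the adjusted p was under 0.05, and the black bar is the list median. The naive pluripotency list has its median at -2.31 and the formative list at 2.58, while mitosis, eye field and anterior neural plate lists have medians close to 0.

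The naive pluripotency genes fell together. All 18 members were called lower, 15 of them by at least 2-fold, with a median of -2.31. Klf4 (chromosome 4, 55527143 to 55532466), a Krüppel-like factor of the naive network, went from 51.2 and 51.5 FPKM to 2.21 and 1.75 FPKM (log2 change -4.14 ± 0.07 SE, adjusted p = 1.97e-19). Esrrb, an orphan nuclear receptor of the same network, went from 118 and 121 FPKM to 13.3 and 13.1 FPKM (-3.09 ± 0.04, adjusted p = 4.14e-21). Nanog (chromosome 6, 122707489 to 122714633), a homeobox factor of the network, went from 175 and 176 FPKM to 16.7 and 16.9 FPKM (-3.31 ± 0.04, adjusted p = 2.41e-21). In all 3 genes the day 2 libraries were far below the day 0 libraries. Zfp42 (Rex1), a widely used naive marker, kept 64.6 and 64.3 FPKM of 459 and 454 FPKM, and Tbx3, a T-box factor, fell from 29.8 and 29.3 FPKM to 1.10 and 0.91 FPKM. The smallest falls were those of Fgf4 (-0.22), the main FGF ligand of stem cells, Dppa3 (-0.84) and Tdh (-0.95), which still stood at 113 and 113 FPKM at day 2. Dppa3, also called Stella, was at 30.4 and 30.7 FPKM at day 0 and 17.3 and 16.1 FPKM at day 2. By days 4 and 6 Nanog was down to 7.91 and 4.13 FPKM and Zfp42 to 9.33 and 4.72 FPKM (means of 2).

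The genes that carry LIF signals moved the same way. All 9 members of the LIF and STAT3 list were called lower, 8 by at least 2-fold, with a median of -2.17. Socs3, a feedback inhibitor that STAT3 induces, fell from 93.9 and 92.3 FPKM to 6.97 and 7.42 FPKM (-3.52 ± 0.08, adjusted p = 3.83e-18). Bcl3, an atypical IκB protein, fell from 76.5 and 73.3 FPKM to 1.58 and 1.11 FPKM (-5.02 ± 0.10, adjusted p = 8.12e-19). Stat3 itself fell from 20.5 and 20.8 FPKM to 7.01 and 6.83 FPKM, and the receptor subunits Lifr and Il6st fell by 1.497 and 1.18 on the log2 scale. The kinase Jak1 had the smallest fall, of 0.30. Of 9 members with a promoter in RefSeq's table (GRCm38.p6, 250 bases before the transcript start to 50 after it), only Socs3 held the letters TTCNNNGAA, a STAT element that reads the same on both strands and that 8.3% of all 32851 promoters in the table hold. It is shown for chr11:117969317-117969616, minus strand, with the match in capitals, because Socs3 is the textbook target in the list.

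Socs3: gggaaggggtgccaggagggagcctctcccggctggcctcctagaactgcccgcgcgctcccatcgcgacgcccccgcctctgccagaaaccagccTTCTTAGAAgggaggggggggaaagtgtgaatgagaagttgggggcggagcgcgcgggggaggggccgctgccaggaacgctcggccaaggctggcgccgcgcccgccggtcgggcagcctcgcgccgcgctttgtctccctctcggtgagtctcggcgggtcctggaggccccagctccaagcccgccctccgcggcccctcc

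The match begins 154 bases before the transcript start. A match of letters is a description of the sequence and not evidence of binding.

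Formative and primed genes rose. Of 17 members, 15 were called higher, 12 by at least 2-fold, 1 was called lower and 1 was not called, with a median of 2.58. Fgf5 (chromosome 5, 98254184 to 98277030), an FGF ligand that marks the epiblast after implantation, rose from 0.53 and 0.24 FPKM to 35.7 and 37.4 FPKM (4.77 ± 0.09, adjusted p = 3.73e-19). Pim2, a serine/threonine kinase, rose from 15.4 and 14.99 FPKM to 556 and 554 FPKM, which is 36.5-fold in mean FPKM (5.10 ± 0.04, adjusted p = 2.61e-24). Otx2, a homeobox factor of the formative state and later of the anterior neural plate, rose from 21.5 and 21.5 FPKM to 133 and 135 FPKM (2.58 ± 0.03, adjusted p = 1.49e-22). In each of these the lower day 2 library lay well above the higher day 0 library. The POU factor Pou3f1 (Oct6) rose from 6.88 and 6.84 FPKM to 95.1 and 94.3 FPKM, Sox3 from 2.33 and 2.51 FPKM to 37.8 and 37.7 FPKM, and the TCF-family factor Lef1 by 2.97 on the log2 scale. The member that fell was Tcf15, a helix-loop-helix factor of early primed cells, from 328 and 330 FPKM to 58.3 and 59.4 FPKM. Dnmt3a, a de novo DNA methyltransferase, was the member not called (-0.07, adjusted p = 0.23). Fgf5 was back to 0.21 FPKM at day 6 and Pim2 to 10.5 FPKM, while Otx2 stood at 220 FPKM at day 4 and Sox3 at 259 FPKM at day 6.

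General pluripotency genes, which both states express, changed less: 8 of 10 were called lower and 2 higher, with a median of -0.46. Pou5f1 held most of its level, at 913 and 928 FPKM at day 0 and 813 and 787 FPKM at day 2 (-0.20 ± 0.05, adjusted p = 0.00227). Sox2 fell from 240.8 and 234 FPKM to 128 and 126 FPKM (-0.90), and Dppa2, a chromatin factor of early embryos, from 127 and 131 FPKM to 28.9 and 28.4 FPKM (-2.13). The RNA-binding protein Lin28a rose from 89.1 and 90.7 FPKM to 165 and 166 FPKM (0.87), and Utf1 rose by 0.17. The libraries labelled day 2 organoids held Pou5f1 and formative markers at high levels, and the naive markers summed to 404 FPKM in both against 1784 and 1786 FPKM at day 0.

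**Figure D2:**
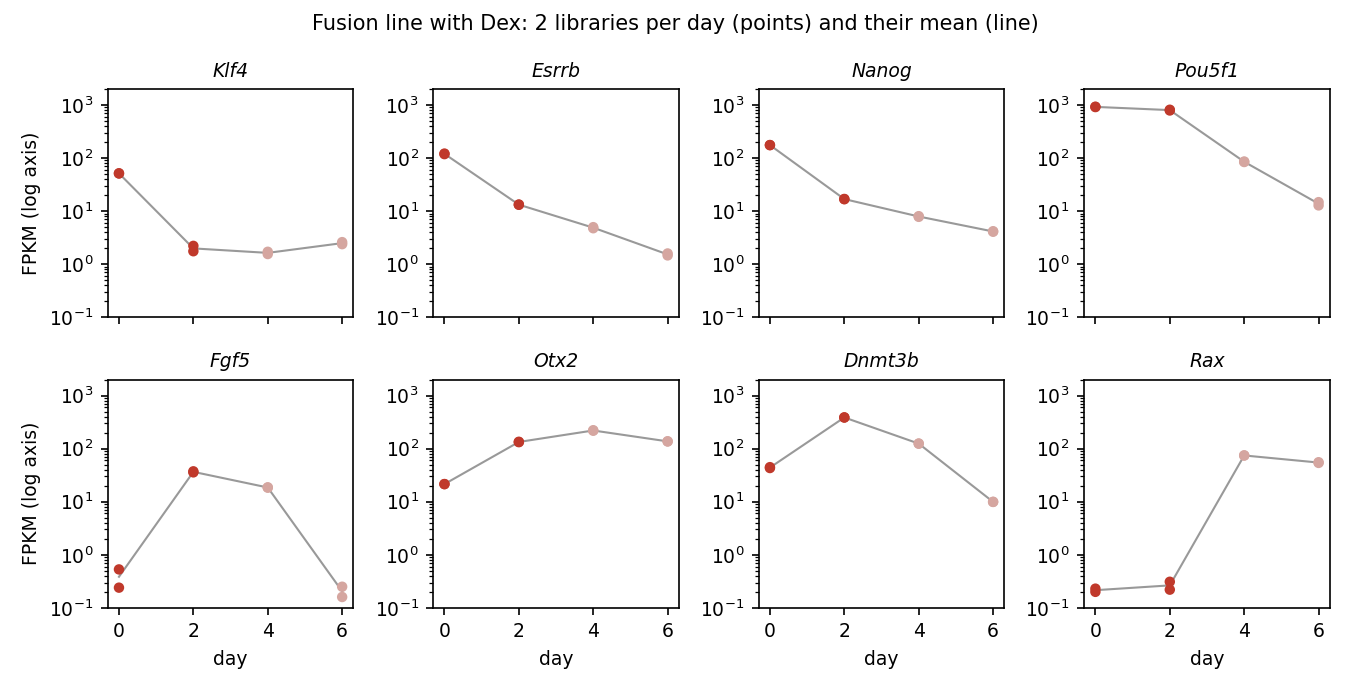
FPKM on a log axis against day in the fusion line with Dex for 8 genes; points are the 2 libraries of a day (dark at days 0 and 2, pale at days 4 and 6) and lines join their means. Klf4, Esrrb and Nanog drop between days 0 and 2 while Pou5f1 is at 787 FPKM or more through day 2, Fgf5 and Dnmt3b are highest at day 2, and Rax stays under 1 FPKM until day 4.

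The enzymes that add and remove DNA methylation moved apart. Of 8 members, 2 were called higher and 5 lower. The de novo enzyme Dnmt3b rose from 43.2 and 44.9 FPKM to 389 and 386 FPKM, 8.81-fold in mean FPKM (3.11 ± 0.03, adjusted p = 1.59e-24). Its cofactor Dnmt3l fell from 219 and 220 FPKM to 126 and 125 FPKM (-0.80). Among the TET enzymes, which oxidise methylated cytosine, Tet2 fell from 11.2 and 10.95 FPKM to 1.11 and 1.10 FPKM (-2.52) and Tet1 fell by 0.99, while Tet3 rose from 0.90 and 1.01 FPKM to 2.06 and 1.93 FPKM. The maintenance pair Dnmt1 and Uhrf1 fell by 0.20 and 0.52.

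In the Nodal pathway, a TGF-β family signal of the epiblast, the ligand and its feedback inhibitors fell. Of 14 members, 12 were tested, 9 were called lower, 8 by at least 2-fold, and 3 were called higher, with a median of -1.33. The ligand Nodal went from 44.7 and 42.5 FPKM to 3.75 and 3.96 FPKM (-3.20 ± 0.06, adjusted p = 2.63e-19), and its co-receptor Tdgf1 (Cripto) from 223 and 225 FPKM to 76.3 and 77.7 FPKM. Lefty1 and Lefty2 are secreted inhibitors that Nodal induces, and they lie next to each other on chromosome 1 (180935022 to 180938400 and 180893108 to 180899103). Lefty1 went from 100.3 and 100.5 FPKM to 2.96 and 2.39 FPKM (-4.79 ± 0.14, adjusted p = 3.83e-16), and Lefty2 from 42.7 and 44.9 FPKM to 5.50 and 6.13 FPKM (-2.72 ± 0.08, adjusted p = 3.41e-16). Smad7, an inhibitory SMAD, fell by 2.20. The members called higher were Foxh1 (0.61), a transcription factor that partners with SMADs, the protease Furin (0.67) and the receptor Acvr2b (0.20), whose call was lost with either day 0 library or the second day 2 library left out (adjusted p between 0.0606 and 0.144). Cfc1 and Cer1 stayed under 0.2 FPKM in all 4 libraries and were not tested.

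Other signalling lists were mixed. Among BMP pathway genes 5 of 13 tested were called higher and 6 lower: Bmp4 fell from 94.1 and 83.4 FPKM to 19.9 and 23.2 FPKM (-1.99 ± 0.33, adjusted p = 2.6e-05) and the inhibitor Smad6 by 2.69, while the target Id3 rose from 13.2 and 11.9 FPKM to 53.6 and 50.6 FPKM (1.97). Among Wnt targets 5 of 12 tested were called each way. Notum, a secreted Wnt deacylase, fell from 99.2 and 93.6 FPKM to 12.3 and 14.3 FPKM (-2.77), while Ccnd1 (cyclin D1) rose by 0.78. Of 11 genes of feedback on ERK, the kinase downstream of FGF receptors, 3 were called higher and 6 lower. The phosphatase Dusp4 rose from 5.28 and 5.39 FPKM to 56.3 and 56.5 FPKM (3.18 ± 0.03, adjusted p = 5e-24), and Spry4 and Spred2 fell by 1.11 and 1.09. Notch pathway genes were called higher in 10 of 14 and lower in 2, with a median of 0.53, and the largest rises were those of Dll3 (1.93), a ligand-like member, and Hes6 (1.90), a relative of the Hes repressors. Of 10 tested Hedgehog pathway genes 4 were called higher and 5 lower, with Smo, the signal transducer, at 1.46 and the target Gli1 at -1.82.

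Genes of retinoic acid metabolism and response included Stra8, the largest fall of all tested genes. Stra8, a retinoic acid-induced gene of germ cells entering meiosis (chromosome 6, 34920163 to 34939344), went from 133 and 133 FPKM to 0.05 and 0.09 FPKM (-6.97 ± 0.09, adjusted p = 6.7e-22), so that the day 2 libraries were near the limit of detection. Over the list, 4 of 14 tested members were called higher and 7 lower. The receptors Rara and Rarg fell by 1.46 and 0.92 and the reductase Dhrs3 by 1.41, while Crabp2, a carrier of retinoic acid in the cytoplasm, rose from 22.7 and 22.3 FPKM to 106 and 104 FPKM (2.17). AGN is present at day 2 and not named for day 0, and its part in these values was not tested.

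All 12 tested members of the 2-cell-like list, genes of a rare stem cell state that resembles the 2-cell embryo, were called lower by at least 2-fold, with a median of -2.61. Zscan4c went from 28.1 and 28.2 FPKM to 1.53 and 1.31 FPKM and Zscan4f from 47.0 and 50.7 FPKM to 2.71 and 3.04 FPKM. The Zscan4 and Usp17l genes are near-identical copies, so counts can be split between them and the single values are uncertain. Among germline genes 9 of 17 tested were called lower and 4 higher. Rpl10l fell from 86.2 and 89.1 FPKM to 15.3 and 15.6 FPKM and Dazl, an RNA-binding protein of germ cells, by 1.64. Sycp3, of the synaptonemal complex, rose from 17.1 and 16.9 FPKM to 34.8 and 34.7 FPKM.

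Neural genes did not move as a block. Of 19 neural progenitor genes 12 were called higher and 6 lower, with a median of 0.66. Sox11 and Sox4, related SoxC factors, rose from 1.45 and 1.33 FPKM to 15.5 and 15.8 FPKM (2.80) and from 19.6 and 20.4 FPKM to 55.1 and 54.6 FPKM (1.41). Zic2 rose by 1.79, the intermediate filament gene Nes (nestin) by 2.04, and Prom1, which encodes the membrane protein prominin-1, by 3.06. Among the members that fell were Sox1, from 4.77 and 4.86 FPKM to 1.33 and 1.25 FPKM (-1.34), Sox21 by 2.26, and Pax6 from 11.1 and 9.67 FPKM to 1.75 and 1.58 FPKM (-2.09 ± 0.15, adjusted p = 2.75e-10). At day 4 Sox1 stood at 24.0 FPKM and Pax6 at 40.6 FPKM.

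The eye field list had 2 of 12 members called higher and 3 lower. The 2 were Otx2, given above, and Mab21l2, which rose from 0.02 and 0.12 FPKM to 1.01 and 1.01 FPKM. Rax was at 0.23 and 0.20 FPKM at day 0 and 0.31 and 0.22 FPKM at day 2, and Six3, Six6 and Lhx2 also stayed under 1 FPKM in all 4 libraries. None of these 4 was called, though Six3 passed after rescaling (0.17, adjusted p = 0.0444) and Lhx2 in a fit of the 8 Dex libraries alone (-0.21, adjusted p = 0.0301). At day 4 the same line had 74.5 FPKM of Rax, 127 FPKM of Six3 and 67.4 FPKM of Lhx2. The reporter transcript listed as eGFP was likewise low until day 4, at 0.32 and 0.19 at day 0, 0.06 and 0.13 at day 2 and 66.5 and 66.9 at day 4 (FPKM). Of 12 anterior neural plate genes 5 were called higher and none was called lower, and the rises other than Otx2 were of at most 0.35. Genes of other regions were low or fell. Gbx2, a factor of the midbrain and hindbrain boundary that naive stem cells also express, went from 52.4 and 52.0 FPKM to 4.37 and 4.70 FPKM (-3.27), and the 4 tested posterior genes (Cdx1, Hoxb2 and Hoxb9 among them) were all called lower from day 0 levels under 2 FPKM.

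Epithelial adhesion genes rose. Of 14 members 13 were called higher, 9 by at least 2-fold, and 1 was called lower, with a median of 1.32. Epcam rose from 87.9 and 88.1 FPKM to 298 and 292 FPKM (1.73 ± 0.06, adjusted p = 9.53e-15), and Cdh1 (E-cadherin) from 67.9 and 70.9 FPKM to 152 and 147 FPKM (1.10). The tight junction claudins Cldn6 and Cldn7 had the largest rises of the list, Cldn6 from 6.83 and 6.49 FPKM to 145 and 145 FPKM (4.25 ± 0.10, adjusted p = 5.6e-18) and Cldn7 from 2.11 and 2.24 FPKM to 54.3 and 51.1 FPKM (4.08), while Cldn4 had the smallest (0.16). Crb3, an apical polarity protein, and Krt18, a simple epithelial keratin, rose by 2.55 and 2.02. The member that fell was Pecam1, an adhesion molecule that naive stem cells carry (-2.42). Opposite to these, Vim (vimentin) fell from 278 and 287 FPKM to 89.3 and 90.5 FPKM (-1.64) and Fn1 (fibronectin) by 1.14, within a mesenchymal list of 3 called higher and 5 lower of 11. Cdh2 (N-cadherin) rose from 2.62 and 2.23 FPKM to 7.28 and 7.03 FPKM. Basement membrane genes were called lower in 8 of 12, with Hspg2 (perlecan) at -1.57, Nid1 at -1.51 and Lamc1 at -1.39, and higher in 4, with Lamb1 at 0.96.

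Glycolytic genes rose, 12 of 15 being called higher, 8 by at least 2-fold, and 2 lower, with a median of 1.17. The glucose transporter Slc2a1 rose from 151 and 152 FPKM to 404 and 405 FPKM (1.41 ± 0.03, adjusted p = 5.82e-19). Phosphofructokinase Pfkl rose from 50.6 and 50.1 FPKM to 248 and 250 FPKM (2.28), triose phosphate isomerase Tpi1 from 113 and 107 FPKM to 766 and 763 FPKM (2.79), and phosphoglycerate kinase Pgk1 from 159 and 158 FPKM to 713 and 719 FPKM (2.17). Lactate dehydrogenase Ldha (chromosome 7, 46841475 to 46855627) rose from 374 and 377 FPKM to 2567 and 2567 FPKM, 6.84-fold in mean FPKM (2.77 ± 0.01, adjusted p = 1.12e-27). The lactate exporter Slc16a3, outside the list and named as 1 of the 10 largest rises, went from 9.38 and 9.04 FPKM to 332 and 332 FPKM (5.03). The exceptions were the transporter Slc2a3 (-0.64) and hexokinase Hk1 (-1.071), both called lower, and Hk2, not called (-0.06, adjusted p = 0.468). Pgk1 and several other glycolytic genes have processed pseudogenes, between which counts can be split.

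Of the 13 genes of the hypoxia response, a set that the factor HIF drives when oxygen is low, 9 were called higher, 8 of them by at least 2-fold, 2 lower and 2 neither, with a median of 1.60. Adm, which encodes the secreted peptide adrenomedullin (chromosome 7, 110627661 to 110629820), rose from 0.15 and 0.20 FPKM to 12.6 and 13.2 FPKM (3.56 ± 0.08, adjusted p = 2.52e-18). Bnip3, of mitochondrial clearance, rose from 11.5 and 10.9 FPKM to 123 and 125 FPKM (3.35 ± 0.03, adjusted p = 1.02e-23). Egln3, a prolyl hydroxylase that marks HIF for degradation, rose from 0.78 and 0.90 FPKM to 18.7 and 18.4 FPKM (3.41), and Ddit4, an inhibitor of mTORC1, from 15.02 and 15.9 FPKM to 155 and 153 FPKM (3.23). Ndrg1 rose from 2.55 and 2.74 FPKM to 15.7 and 16.8 FPKM (2.24). Not all members took part: the demethylase Kdm3a fell from 39.1 and 39.1 FPKM to 16.7 and 16.5 FPKM (-1.19), Pdk1 was not called, and Car9 stayed under 1 FPKM. Vegfa, the other member called lower, was at -0.18 with an adjusted p of 0.0446, which rescaling took to 0.0856. Its call was also lost in a limma fit of the 4 libraries alone (adjusted p = 0.0661) and without the filter on low values (0.0809). Leaving out Dex day 0 replicate 2 or either day 2 library lost it too. Ddit4 is also a target of the glucocorticoid receptor and stands in both lists. Oxygen was not measured.

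The promoters of 4 of the genes that rose are shown because the core of the hypoxia element, ACGTG, lies in them. Searched on both strands in RefSeq's 300-base promoters, these letters were in 19.6% of all 32851 promoters. They were in 9 of the 16 promoters found for 12 of the 13 hypoxia genes and in 10 of the 21 found for 14 of the 15 glycolytic genes. Capitals mark each match in either orientation, and CACGTG holds the letters on both strands. The regions, of build GRCm38.p6, are chr7:138909457-138909756 on the minus strand for Bnip3, chr12:54203825-54204124 on the minus strand for Egln3, chr7:46845554-46845853 on the plus strand for the upstream of 2 Ldha promoters, and chrX:106186850-106187149 on the plus strand for Pgk1.

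Bnip3: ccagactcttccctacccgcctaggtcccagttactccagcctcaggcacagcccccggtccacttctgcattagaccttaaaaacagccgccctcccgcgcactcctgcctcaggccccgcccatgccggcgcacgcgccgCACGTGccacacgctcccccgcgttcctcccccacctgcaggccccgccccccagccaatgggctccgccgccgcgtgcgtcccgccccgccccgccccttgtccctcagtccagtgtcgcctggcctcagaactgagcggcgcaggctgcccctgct

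Egln3: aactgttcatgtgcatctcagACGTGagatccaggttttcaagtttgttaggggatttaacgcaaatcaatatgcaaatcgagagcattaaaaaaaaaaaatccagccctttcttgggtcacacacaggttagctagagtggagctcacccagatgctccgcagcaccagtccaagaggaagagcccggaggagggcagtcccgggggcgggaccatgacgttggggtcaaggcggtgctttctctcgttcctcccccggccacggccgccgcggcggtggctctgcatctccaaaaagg

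Ldha: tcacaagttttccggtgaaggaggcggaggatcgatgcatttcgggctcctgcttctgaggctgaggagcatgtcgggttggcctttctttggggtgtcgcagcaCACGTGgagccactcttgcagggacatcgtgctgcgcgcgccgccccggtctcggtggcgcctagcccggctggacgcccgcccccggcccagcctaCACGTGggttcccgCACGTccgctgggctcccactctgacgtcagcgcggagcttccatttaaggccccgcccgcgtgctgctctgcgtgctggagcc

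Pgk1: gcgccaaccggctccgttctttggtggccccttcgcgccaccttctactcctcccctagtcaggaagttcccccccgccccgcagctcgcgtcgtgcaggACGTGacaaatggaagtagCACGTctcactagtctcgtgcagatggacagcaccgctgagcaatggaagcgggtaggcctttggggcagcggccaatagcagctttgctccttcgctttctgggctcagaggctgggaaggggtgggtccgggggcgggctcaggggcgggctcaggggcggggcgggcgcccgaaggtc

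The promoter of Adm, which rose, holds no match, and the more downstream of the 2 promoters of Hk1, which fell, holds 2. The shares were not tested, and both lists were known to rise when they were searched.

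Cholesterol synthesis genes fell by less than 2-fold. Of 21 members 18 were called lower, none by 2-fold, 2 were called higher and 1 was not called, with a median of -0.64. Fdps, which makes farnesyl pyrophosphate (chromosome 3, 89093588 to 89101959), went from 353 and 351 FPKM to 190 and 192 FPKM (-0.88 ± 0.02, adjusted p = 9.34e-18). Mvd, of the mevalonate pathway, fell from 104 and 107 FPKM to 53.6 and 54.4 FPKM (-0.95). Srebf2, whose product drives the pathway, fell by 0.49. Of the members called higher, the sterol carrier Stard4 rose by 0.22, a call lost in a fit of the 4 libraries alone (adjusted p = 0.0722).

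Genes of the integrated stress response, which the factor ATF4 drives, rose modestly: 12 of 14 tested members were called higher, 1 of them by at least 2-fold, and 1 lower, with a median of 0.47. Chac1, a glutathione-degrading enzyme, rose from 3.56 and 3.61 FPKM to 14.3 and 13.7 FPKM (1.71 ± 0.06, adjusted p = 3.61e-15). The serine synthesis enzymes Phgdh and Psat1 rose from 62.1 and 62.7 FPKM to 123 and 123 FPKM (0.97) and from 73.4 and 76.5 FPKM to 140 and 138 FPKM (0.88). Atf4 rose by 0.28, and Asns, asparagine synthetase, fell by 0.29. The letters TGATGNAA, the core of the element ATF4 binds, were in 6 of 17 promoters of 15 members and in 3.97% of all promoters, both strands searched. Of the 6 members with a match, Chac1, Trib3 and Nupr1 were called higher, Asns was called lower, and Slc7a11 and Fgf21 were too low to be tested. The Chac1 promoter, chr2:119350992-119351291 on the plus strand, is shown for the member with the largest rise, with the match (on the opposite strand) in capitals.

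Chac1: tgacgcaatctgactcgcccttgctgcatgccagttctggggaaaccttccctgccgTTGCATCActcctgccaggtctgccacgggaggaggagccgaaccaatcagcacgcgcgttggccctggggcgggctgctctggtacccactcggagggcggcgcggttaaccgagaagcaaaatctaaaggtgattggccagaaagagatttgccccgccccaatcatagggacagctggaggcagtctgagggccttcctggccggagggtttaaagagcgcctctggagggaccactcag

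Immediate early genes, which respond within minutes to growth factors and stress, were called lower in 9 of 13 tested and higher in 3, with a median of -0.79. Egr1, a zinc finger factor, went from 26.7 and 28.1 FPKM to 9.52 and 8.57 FPKM (-1.501 ± 0.05, adjusted p = 4.49e-15). Ccn1 and Ccn2, matricellular proteins that respond to YAP and serum, went from 28.3 and 28.3 FPKM to 5.75 and 6.74 FPKM (-2.02) and from 16.4 and 17.2 FPKM to 3.96 and 4.04 FPKM (-1.83). Ier3 went the other way, from 4.51 and 5.08 FPKM to 34.6 and 35.2 FPKM (2.63).

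Known targets of the glucocorticoid receptor did not move one way. Of 17 tested members 9 were called higher and 6 lower, with a median of 0.18. Tsc22d3 (GILZ) rose from 1.83 and 1.66 FPKM to 5.93 and 5.60 FPKM (1.30) and the metallothionein Mt1 from 457 and 441 FPKM to 1254 and 1263 FPKM (1.48). Fkbp5, a co-chaperone that is a standard marker of glucocorticoid exposure, fell from 44.0 and 43.8 FPKM to 23.9 and 23.5 FPKM (-0.86), and Sgk1 fell from 99.2 and 101 FPKM to 34.4 and 32.6 FPKM (-1.55). Both groups are labelled Dex treated. Tsc22d3, Mt1, Fkbp5 and Sgk1 moved the same way in the 3 lines not labelled Dex treated, but not all members did. In no Dex, WT and KO, Fkbp5 changed by -0.27, -1.145 and -0.90, Sgk1 by -1.015, -1.27 and -1.91, and Tsc22d3 by 1.44, 1.73 and 1.60. Mt1 changed by 1.06, 1.24 and 2.97. Cdkn1c changed by -0.79 with Dex and by 0.175, 0.17 and 1.62 in no Dex, WT and KO. Of 17 members 10 changed more negatively with Dex than without it (32.4% of all genes did) and 1 more positively (12.6%). Against KO 13 were more negative (29.6%) and none more positive, and against WT 4 (13.7%) and 7 (20.4%). After rescaling the counts were 6 and 3 against no Dex and 12 and 1 against KO. Among genes of the m6A machinery, 5 writers were called higher and 4 lower of 9, all by less than 2-fold, with Wtap, a scaffold subunit, at -0.62. The demethylase Alkbh5 rose from 9.03 and 9.62 FPKM to 15.7 and 16.5 FPKM (0.73), within a reader and eraser list of 7 higher and 2 lower of 11.

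Imprinted genes were called higher in 8 of 18 and lower in 8. The maternally expressed noncoding RNAs Meg3, Rian and Mirg, of a single locus, rose together, Meg3 from 552 and 562 FPKM to 1688 and 1701 FPKM (1.60), Rian by 1.803 and Mirg by 1.84. H19 (chromosome 7, 142575529 to 142578143) fell from 139 and 139 FPKM to 59.7 and 61.3 FPKM (-1.19). Cell cycle lists had medians near 0. Mitosis genes had a median of 0.01 with 5 of 15 called higher and 6 lower, and replication genes a median of -0.11 with 2 of 20 called higher and 11 lower. The cyclin Ccnd3 fell from 178 and 187 FPKM to 60.1 and 60.2 FPKM (-1.58), Myc fell by 1.05 and Mycn rose by 0.76. Of 13 genes of the mitochondrial genome none was called higher and 6 were called lower, by at most 0.35.

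Markers of other cell types were low in some lists and not in others. Of 12 trophoblast markers 4 were under 1 FPKM in all 4 libraries, and of 12 neural crest markers 9 were. The trophoblast list summed to 49.3 and 55.9 FPKM at day 0 and to 20.3 and 20.7 FPKM at day 2. Of 12 surface ectoderm markers 6 were under 1 FPKM in all 4 libraries. The list summed to between 112.7 and 117.0 FPKM at day 0 and between 303.0 and 310.8 FPKM at day 2, most of it from Epcam. Of its 8 tested members 3 were called higher and 4 lower, with a median of -0.23. Of 12 early neuron markers 7 were under 1 FPKM in all 4 libraries. In that list 3 were called higher and 3 lower, with a median of 0.08. Its sum went from 317.6 and 318.2 FPKM to 135.1 and 135.7 FPKM, a fall that does not stand for the list. Of 12 fibroblast feeder markers 10 were under 1 FPKM in all 4 libraries, and the list summed to between 4.4 and 4.8 FPKM at day 0 and 10.4 and 12.2 FPKM at day 2, most of the rise being that of Thy1, from 2.21 and 2.39 FPKM to 10.8 and 9.05 FPKM. Col3a1, Lum and Postn were at or below 0.22 FPKM. Of 18 extraembryonic endoderm markers 8 were under 1 FPKM in all 4 libraries, 10 were called higher and 3 lower. The list summed to between 109.9 and 110.7 FPKM at day 0 and between 96.5 and 97.1 FPKM at day 2, most of it from Sparc. Among its defining markers Sox17 rose from 1.22 and 1.65 FPKM to 2.62 and 2.11 FPKM (adjusted p = 0.00638, and 0.092 or 0.0809 without the first library of day 0 or of day 2) and the visceral endoderm receptor subunits Cubn and Amn rose by 1.19 each, while Gata6 fell by 0.64 and Afp was at or below 0.07 FPKM. Of 13 mesendoderm markers 10 were under 1 FPKM throughout, and Eomes rose from 2.23 and 2.13 FPKM to 9.17 and 9.36 FPKM. The part of such cells in the other results was not tested.

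The 10 largest rises under the naming rule were those of Ndufa4l2, Pim2, Slc16a3, Fgf5, Car14, Vrtn, Cldn6, Tmem54, Cldn7 and Jph4. Ndufa4l2, a HIF target of the mitochondrion (chromosome 10, 127514967 to 127517154), went from 0.51 and 0.34 FPKM to 83.8 and 84.1 FPKM (5.90 ± 0.21, adjusted p = 7.61e-15), and the carbonic anhydrase Car14 from 1.49 and 0.82 FPKM to 54.8 and 51.9 FPKM (4.67). The 10 largest falls were those of Stra8, Aqp3, Cd37, Mras, Mylpf, Bcl3, Lefty1, Msc, Adgre5 and Calcoco2. Aqp3, a water and glycerol channel, went from 95.4 and 96.6 FPKM to 0.42 and 0.33 FPKM (-6.14), the tetraspanin Cd37 from 100.1 and 97.9 FPKM to 0.59 and 0.70 FPKM (-5.93), and Mylpf, a myosin light chain, from 299.9 and 402 FPKM to 9.53 and 8.78 FPKM (-5.10). Of the 732 rises of at least 2-fold, 251 were closer to their day 0 than to their day 2 level at day 6 in the same line, and of the 1093 falls 203 were.

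The day 0 to day 2 change was next set against the same change in the other 3 lines, which share no library with it. Of the 732 rises of at least 2-fold, 704 were also called higher at day 2 without Dex (41.4% of all genes were), 687 in WT (27.4%) and 701 in KO (37.2%). Of the 1093 falls, 1025 were also called lower without Dex (26.5% of all genes were), 1036 in WT (36%) and 1004 in KO (28.5%). The size of the change differed more often. A difference in the change was called for 7319 genes (45%) against no Dex, 5548 (34.1%) against WT and 7042 (43.3%) against KO, and by at least 1 on the log2 scale for 351, 240 and 508 genes. These 3 comparisons share the 4 Dex libraries. Against no Dex only 28% of the differences were more positive with Dex, and 45.3% after rescaling, which moved the median difference over all genes from -0.12 to -0.02. The share was 59.8% against WT (55.3% rescaled) and 31.5% against KO (39.9% rescaled).

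Cholesterol synthesis genes differed in the same direction against both no Dex and KO. All 21 members had a change that was more negative with Dex than without it (32.4% of all genes were), and all 21 were more negative than in KO (29.6%), with median differences of -0.63 and -1.05. After rescaling the counts were 20 and 21. In WT the list fell as well, with a median of -0.44, while its median was 0.24 without Dex and 0.51 in KO. Against WT 6 members were more negative with Dex (13.7% of all genes were) and 2 more positive (20.4%). Fdps went from 222 and 233 FPKM to 147 and 148 FPKM without Dex, from 231 and 230 FPKM to 171 and 169 FPKM in WT, and from 162 and 164 FPKM to 207 and 212 FPKM in KO. Fdps fell in the other 3 lines and rose in KO (0.36), and its day 0 level was highest with Dex. Its fall without Dex (-0.62) was the largest of the 21 members there, so Fdps does not stand for the list in that line.

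**Figure D3:**
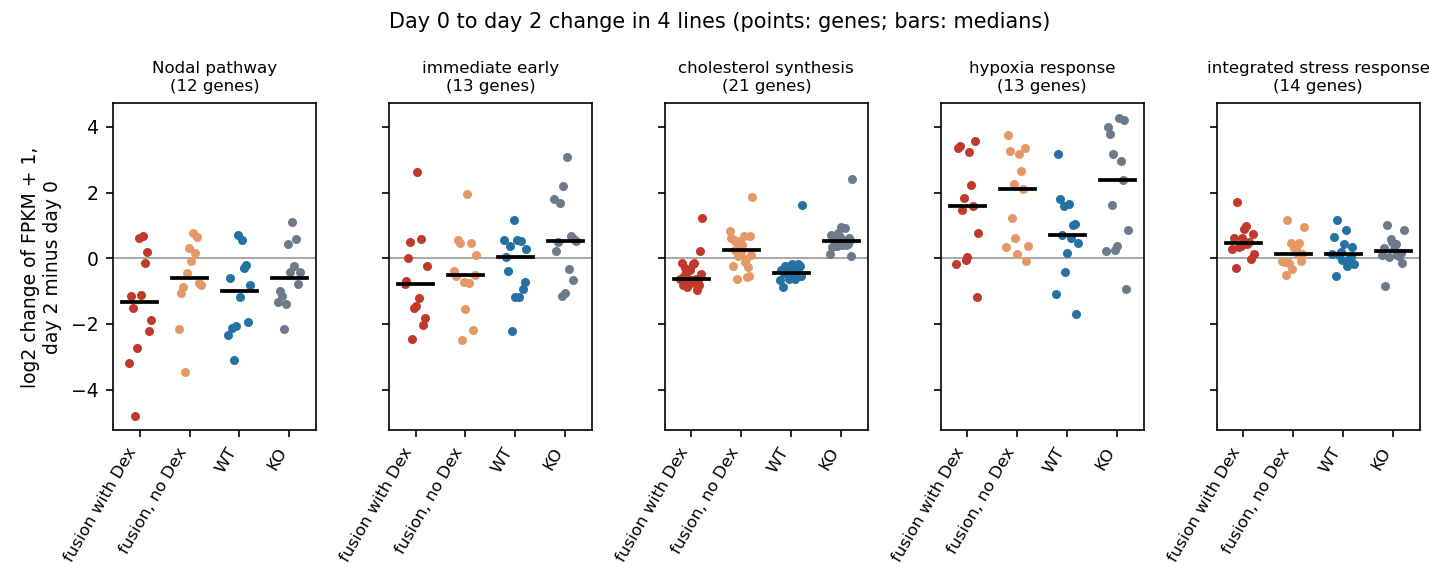
Log2 change of FPKM + 1 from day 0 to day 2 (vertical axis) in 4 lines for the tested members of 5 gene lists; points are genes and black bars medians. Cholesterol genes lie below 0 with Dex and in WT and mostly above 0 without Dex and in KO, and the hypoxia median is lowest in WT, at 0.71.

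The change of hypoxia genes was more positive with Dex than in WT in 12 of 13 members (20.4% of all genes were), with a median difference of 0.59, and more negative than in KO in 10 of 13 (29.6%), with a median difference of -0.40. Rescaling gave the same counts, 12 and 10. Against no Dex 2 were more positive (12.6% of all genes were) and 7 more negative (32.4%), and after rescaling 5 and 7. Adm reached 1.40 and 1.23 FPKM at day 2 in WT, against 12.6 and 13.2 FPKM with Dex, 11.9 and 11.5 FPKM without Dex and 21.2 and 20.3 FPKM in KO. Ndrg1 reached 4.10 and 4.04 FPKM in WT and more than 15 FPKM in every day 2 library of the other lines. For both genes the change with Dex exceeded that in WT (differences of 2.53 and 1.63, adjusted p = 6.14e-12 and 3.25e-11), while Adm did not differ in its change from no Dex beyond the spread (0.22, adjusted p = 0.107) unless rescaled (0.32, adjusted p = 0.0217).

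The change of naive pluripotency genes was more negative with Dex than without it in 17 of 18 members (32.4% of all genes, 15 members after rescaling), with a median difference of -0.74. Not all fell without Dex, where Fgf4 changed by 0.60 and Dppa3 by 0.165. Against WT 9 members were more negative (13.7% of all genes were) and 3 more positive (20.4%). Against KO 8 were more negative (29.6%) and 1 more positive (13.6%). Dppa3 fell with Dex but was called higher at day 2 in WT (0.46) and KO (0.47). Lefty2 stayed at 25.1 and 23.5 FPKM at day 2 without Dex, from 33.2 and 33.7 FPKM, where it went to 5.50 and 6.13 FPKM with Dex (difference -2.27, adjusted p = 3.49e-11). Lefty1 ended at 7.61 and 9.45 FPKM without Dex, 5.13 and 6.76 FPKM in WT and 13.6 and 14.5 FPKM in KO, all above its day 2 level with Dex. Of the 14 stress response genes 10 had a more positive change with Dex than without it (12.6% of all genes), 10 than in WT (20.4%) and 10 than in KO (13.6%), in comparisons that share the Dex libraries. A more negative change was called for 1 member against no Dex (32.4% of all genes), none against WT (13.7%) and 3 against KO (29.6%).

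Egr1 differed in direction between lines. It fell with Dex and without it (from 24.7 and 24.4 FPKM to 14.7 and 14.5 FPKM) and rose in WT, from 1.94 and 1.76 FPKM to 5.24 and 5.45 FPKM, and in KO, from 2.56 and 2.40 FPKM to 15.4 and 14.8 FPKM. The difference of the change with Dex was -2.66 from WT and -3.71 from KO (adjusted p = 1.77e-14 and 4.08e-17). The day 0 libraries of the 2 fusion groups stood far above those of WT and KO, so the lines differed before day 2. Immediate early genes as a list were more negative with Dex than in KO in 11 of 13 members, against 29.6% of all genes. H19 also fell with Dex and without it and was called higher in WT (1.075) and KO (1.05). Ccn2 fell with Dex, without it and in WT, and was called higher in KO (0.58).

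**Figure D4:**
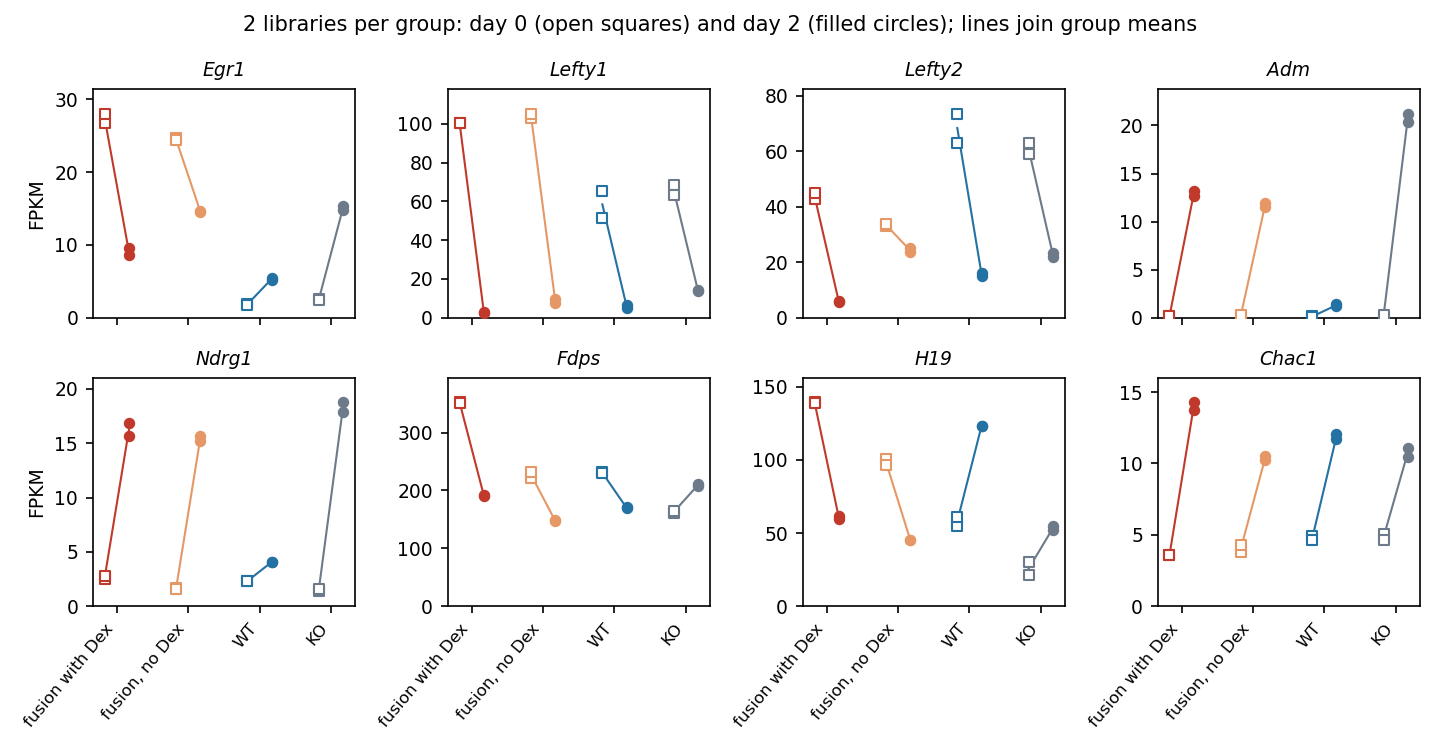
FPKM in each library at day 0 (open squares) and day 2 (filled circles) for 8 genes in 4 lines, with lines joining the means of the 2 libraries. Egr1 starts high and falls in both fusion groups and starts low and rises in WT and KO, Adm and Ndrg1 rise least in WT, and Fdps rises only in KO among these 4 lines.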

How the data were processed

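The authors deposited a table of FPKM per gene for 32 libraries of polyadenylated RNA, read as paired ends. The submitters' processing notes name STAR, Cuffdiff and the build mm10, without parameters. The unit FPKM is read from the deposited table, and its steps at low values gave each library's depth, with 86.0% to 92.5% of low values no more than 0.2 fragments from a whole number, where chance gives 40.0%. Of 55492 rows, 99.5% matched the GENCODE annotation of GRCm38 by gene ID, 5 were reporter rows and 21161 were listed at 0 in every library. FPKM are not counts, so no count test was run.

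Tests were made with limma 3.58.1 in R 4.3.3 on log2(FPKM + 1), with a mean-variance trend, 16 group means and 16 residual degrees of freedom over all 32 libraries. A gene was tested when at least 2 libraries reached 1 FPKM, and called at a two-sided Benjamini-Hochberg adjusted p under 0.05. Differences between lines were interaction contrasts. On simulated data of 16276 genes for the Dex comparison, 84.8% of changes of 0.5 and 96.2% of changes of 1 on the log2 scale were recovered, and 3.8% of calls were false. The simulation changed only a small set of genes, none of them low at day 0, with normal noise of equal spread in all groups. In the real comparison 60.6% of genes were called, low genes among them, and the spread differed between groups. The simulated rates therefore need not hold for the real calls. The genes named are list members, Mettl3 and Nr3c1, the 10 largest rises and falls, and the 4 largest differences each way against each line, among called protein-coding genes with a proper symbol and at least 5 FPKM in a group. Members and lists were chosen with earlier results of these data known. The alternatives were another pseudocount, other filters, rescaling, smaller fits, a replicate block, no trend, and each library left out. Some list members are counted in their lists and not reported singly here.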

Additional observations from a re-analysis of the deposited data

Results flagged for a closer look

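The day 0 to day 2 change with Dex differed from that of another line for 7319 genes against no Dex, 5548 against WT and 7042 against KO, by a test of the difference itself (limma, adjusted p under 0.05). Lists in which all members, or all but 1, differed in a single direction were cholesterol synthesis, more negative for 21 of 21 genes than without Dex and for 21 than in KO, naive pluripotency, more negative for 17 of 18 than without Dex, and hypoxia, more positive for 12 of 13 than in WT. All 8 DNA methylation enzymes and all 11 m6A readers and erasers were also more negative with Dex than without it, as were 32.4% of all genes, and after rescaling 8 and 9 were. Against WT the split was 4 more positive and 2 more negative for the methylation enzymes and 8 and 0 for the m6A list. Other lists leaned nearly as far, with 14 of 16 p53 targets, 12 of 14 Notch genes and 11 of 13 immediate early genes more negative than in KO and 13 of 15 glycolytic genes more positive than in WT. Over all genes, 29.6% were more negative than in KO, and 20.4% were more positive and 13.7% more negative than in WT. These comparisons share the Dex libraries.

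Against no Dex the largest positive differences were those of Rpgrip1 (2.99), Vps39 (2.46), Krtdap (1.93) and Hist1h4n (1.91), and the largest negative ones those of Zfp978 (-2.86), Lefty2 (-2.27), Adnp (-2.14) and Vcl (-1.69). Duplicates disagreed behind 3 of these. Rpgrip1 had no Dex day 2 values of 0.73 and 3.88 FPKM, and its difference was 2.25 without the first and 3.74 without the second. Vps39 had no Dex day 0 values of 2.70 and 19.6 FPKM, and its difference was 3.69 without the first and 1.22, no longer called (limma, adjusted p = 0.0519), without the second. Krtdap had Dex day 2 values of 1.86 and 8.53 FPKM, and its difference was 2.79 without the first and 1.06, not called (limma, adjusted p = 0.268), without the second. The Krtdap call was also lost with any of the 4 no Dex libraries or either Dex day 0 library left out. Histone genes lack the usual polyadenylated tail and are near-identical copies, so Hist1h4n is uncertain.

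Against WT the differences were those of Adm (2.53), Ndufa4l2 (2.28), Vps39 (2.18), Ier3 (2.08), Exosc6 (-4.19), Egr1 (-2.66), Gadd45g (-2.55) and Ctsh (-2.46). Against KO they were those of Krtdap (2.45), Pagr1a (2.15), Zfp978 (1.83), Id3 (1.51), Exosc6 (-6.14), Egr1 (-3.71), Tagln (-2.74) and Rpgrip1 (-2.67). Duplicates disagreed behind some of these too. Vps39 had WT values of 7.78 and 5.21 FPKM at day 0 and 2.85 and 5.57 FPKM at day 2. Krtdap, with the Dex day 2 values above, had KO day 0 values of 2.12 and 0.47 FPKM. Pagr1a had Dex day 2 values of 6.01 and 9.41 FPKM and KO day 0 values of 5.79 and 8.64 FPKM. Rpgrip1 had Dex day 2 values of 5.82 and 3.5 FPKM. Exosc6 was listed at 0 in both WT and both KO day 0 libraries and overlaps another gene, so its values give no fold.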

How the results depend on the processing

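With 2 libraries a group the spread came from all 32, and 1 library left alone after another was left out is assumed to vary like the other groups. Leaving out each library in turn gave between 8878 and 8977 called genes, 1854 and 1866 of at least 2-fold, 6679 and 6790 differences from no Dex, 4711 and 5664 from WT and 6283 and 6418 from KO. A mean of at least 5 FPKM tested fewer genes and left 3399 called lower and 1017 of at least 2-fold, a pseudocount of 0.1 gave 3214 of at least 2-fold, and the groups compared alone gave 3475 differences from WT. With the replicate block 9863 genes were called, 1826 by at least 2-fold, with 7314, 5535 and 7008 differences from no Dex, WT and KO. The duplicate differences of the Dex groups correlated at 0.16, within the range of -0.27 to 0.30 over all 120 pairs of groups, and the labels do not say that a number marks a shared culture. Of 46 lists, 11 had a median of the other sign under some alternative. A mean of at least 5 FPKM, which leaves fewer members, gave FGF ligands and receptors 0.433, surface ectoderm 1.734, Hedgehog pathway 0.478, BMP pathway 0.285, eye field -0.077, early neurons -0.158 and neural crest 0.647. Mitosis was at -0.024 without Dex day 2 replicate 1, with values up to 0.014 when another library was left out, and the other medians so affected (imprinted, fibroblast feeder, pigment and optic vesicle) stayed within 0.013 of 0. Of 178 gene values tried 169 kept their direction and side of the threshold under every alternative run, and none reversed. The exceptions are Six3, Lhx2, Acvr2b, Vegfa, Stard4, Sox17 and the differences of Adm, Vps39 and Krtdap from no Dex.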
